A study of Mus musculus with 2 samples.

Results

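General capillary cells (gCap) of the mouse lung that carried no clear arterial or venous genes were examined here, and numbered 3580 of 15210 barcodes, of which 2185 of 7985 came from control lungs and 1395 of 7225 from lungs with B16-F10. A barcode was taken when it held 1000 to 5000 genes, under 20% mitochondrial unique molecular identifiers (UMIs, each marking 1 captured RNA molecule), at least 0.5% Malat1 UMIs and at least 2 UMIs of the endothelial genes Pecam1 and Cdh5. It then needed at least 3 UMIs of Gpihbp1, Kit and Aplnr together. Each of 5 further groups of genes could hold at most 1 UMI. Those for other vessel types were Ednrb, Fibin and Apln of aerocytes, Slc6a2, Amigo2, Mmp16 and Tmem45a of veins, and Gja5, Stk32a, Sfrp1 and Cytl1 of arteries. Those for a bias within general capillaries were Ntrk2, Adam23, Gja4 and Fam181b of the arterial side, and Vegfc, Chrm2 and Kcnh1 of the venous side. The count of cells therefore follows the depth of a barcode and the level of these genes in each library, and its size was not compared between groups.

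The study compared control lungs of wild-type (WT) C57BL/6 mice, given PBS, with lungs of WT C57BL/6 mice given 400000 B16-F10 cells in 100 µl of PBS. Both went into the tail vein and lungs were taken at 6 h. The B16-F10 line comes from a mouse skin melanoma, and the dye CellTracker Green marked its cells. Sorting kept cells with surface Pecam1 and without Ptprc, plus green melanoma cells in the B16-F10 group. Cells of several mice were pooled into 1 library per group, with 2 mice per treatment in the labels and 3 per sample in the methods of the study, and the ages of the mice are not given in the labels. The melanoma cells were injected as a suspension into the blood, so the model holds cells arriving in the lung and no primary tumor. With 1 library per group there was no replicate check and no test, and each difference compares 2 libraries.

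The alveolar capillary bed of the lung is built from general capillary cells, which line most of the bed and act as its progenitors, and aerocytes, which are thin cells specialised for gas exchange. General capillary cells carry Gpihbp1, the protein that holds lipoprotein lipase on the vessel wall, Kit, the receptor for stem cell factor, and Aplnr, the receptor for the apelin that aerocytes make. Cells nearer to arterioles carry arterial genes such as Cxcl12 and Bmx, and cells nearer to venules carry venous genes such as Nr2f2.

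The libraries held 85794655 UMIs (control) and 104978816 UMIs (B16-F10) over all barcodes. The median cell held 6593 UMIs and 2792 genes in control, and 7887 UMIs and 3099 genes in B16-F10. No barcode sequence was shared by cells of both libraries. Levels below are counts per 1000000 UMIs (CPM) of the summed UMIs of a class, not corrected for gene length, so a level is compared between classes and libraries and never between genes. A ratio is always log2 of B16-F10 over control, with an exact conditional binomial 95% interval, and "called" means at least 2-fold. Intervals cover counting error only. The summed UMIs came to 14880357 and 11411017.

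The label was checked against genes on both sides of the rule. Gpihbp1 was at 1510 CPM in the control cells and 1125 CPM in the B16-F10 cells. Kit was at 832 and 767 CPM, and Aplnr at 73.1 and 76.2 CPM. These 3 genes chose the cells, so their levels are a description. Aerocyte barcodes were taken with at least 3 UMIs of Ednrb, Fibin and Apln and at most 1 UMI of Gpihbp1, Kit and Aplnr. Their levels of Gpihbp1, at 28.8 and 28.5 CPM, and of Kit, at 3.80 and 6.97 CPM, therefore follow from that choice and do not check the label. The 8 gCap genes listed for this check outside the rule summed to 11791 CPM in the control cells and 8783 CPM in the B16-F10 cells, against 5220 and 4685 CPM in near-empty barcodes of 1 to 100 UMIs, which hold free RNA of the suspension. The endothelial genes outside the rule summed to 10044 and 8529 CPM, close to the 9659 and 8296 CPM of near-empty barcodes, so this list does not set the cells apart from free RNA. The gCap genes go with the label of general capillary cells for the sum over all cells, but not for some subsets defined further on. In the B16-F10 cells of the Csf2 group these 8 genes summed to 5220 CPM, near the 4685 CPM of near-empty barcodes. In cells marked by Fabp4, Rbp7 and Aqp7 they summed to 4086 CPM (control) and 4389 CPM (B16-F10), below near-empty barcodes.

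The arterial and venous genes outside the rule were read beside general capillary barcodes with at least 2 UMIs of the arterial genes (1315 control and 1277 B16-F10 barcodes) or of the venous genes (940 and 948). Cxcl12, a chemokine of arterial endothelium, stood between the sides in the control library, at 630 CPM on the arterial side, 294 CPM in the cells without bias and 172 CPM on the venous side. The order was the same in the B16-F10 library, at 525, 238 and 153 CPM. Bmx, an arterial kinase, held that order too, at 35.5, 20.8 and 8.07 CPM in the control library and at 12.3, 6.41 and 2.30 CPM in the B16-F10 library. Arterial and venous values leave out the marked barcodes, which are defined further on. Prss23, a serine protease, ran the other way, at 29.8 CPM on the arterial side, 43.1 CPM without bias and 65.2 CPM on the venous side of the control library.

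Most of the other arterial and venous genes did not place the cells between the sides. Dll4, a Notch ligand of arterial cells, was at 182 CPM in the control cells without bias, 137 CPM on the arterial side and 119 CPM on the venous side. Hey1, a target of Notch, was at 368, 334 and 254 CPM in the same order of classes. Nr2f2, the transcription factor of venous identity, lay between the sides but near the arterial level in the control library, at 11.2 CPM without bias, 10.5 CPM on the arterial side and 24.7 CPM on the venous side. In all, 2 of 8 arterial and 2 of 8 venous genes lay between the sides in the control library, and 3 of 8 of each in the B16-F10 library. Cells without bias thus took a middle level for Cxcl12 and Bmx, and the highest of the 3 control levels for Dll4 and Hey1.

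**Figure D1:**
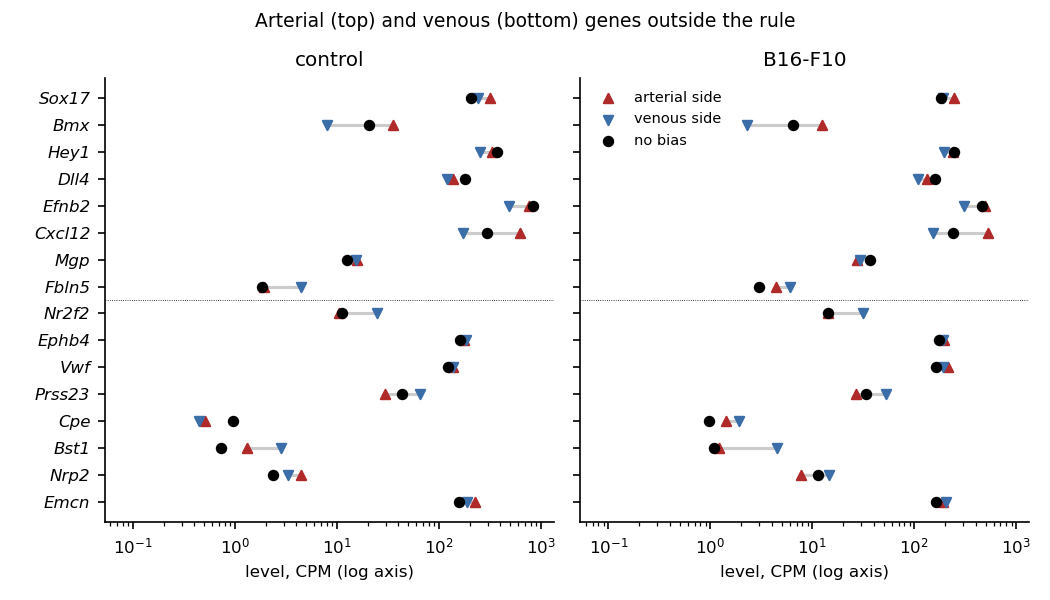
Level in CPM on a log axis of 8 arterial genes (top) and 8 venous genes (bottom) that the rule did not use, in unmarked general capillary barcodes of the arterial side (triangles up), the venous side (triangles down) and without bias (black circles), with control left and B16-F10 right. Cxcl12 and Bmx run from a high arterial to a low venous level with the unbiased cells between, while Nr2f2 of the unbiased cells sits near the arterial level.

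The cells were not of 1 kind. After their values had been seen, barcodes were marked where they held genes of another state or cell type. The largest of these sets, called the Csf2 group here, needed at least 2 UMIs of Csf2, Sox9, Has2, Adamts4, Prnd and Fosl1 together. It held 204 of 1395 B16-F10 cells (14.6%, exact Clopper-Pearson 95% interval 12.8 to 16.6). A UMI of Fosl1 was found in 169 of the 204 cells and one of Adamts4 in 94. Sox9 was found in 56, Has2 in 48, Csf2 in 35 and Prnd in 31, so most cells of the group held no Csf2. In the control library the set held 4 of 2185 cells (0.183%, 0.0499 to 0.468). Csf2 encodes the growth factor GM-CSF, Sox9 a transcription factor, Has2 a hyaluronan synthase, Adamts4 a matrix protease, and Fosl1 a subunit of the AP-1 factor. Csf2, gene ID ENSMUSG00000018916, at chr11:54247271-54249667 on the minus strand of GRCm38, held 0 UMIs in the control cells and 396 in the B16-F10 cells, at least 172-fold higher against a floor of 3 counts over the control sum.

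The share of the Csf2 group was lower in the other capillary classes of the B16-F10 library. It was 2.66% on the arterial side (1.85 to 3.70), 2.11% on the venous side and 2.02% in barcodes with genes of both sides. Aerocytes held 7.21% (39 of 541), beside 0.719% (7 of 974) in the control library. Cells of the group had more UMIs than the others, with a median of 10856 against 7887 over all B16-F10 cells without bias, and fewer UMIs of the 3 rule genes, with a median of 8 against 16 in cells with 0 UMIs of the set. The rule bounds arterial and venous UMIs from above, and the part of that bound in these shares was not tested.

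**Figure D2:**
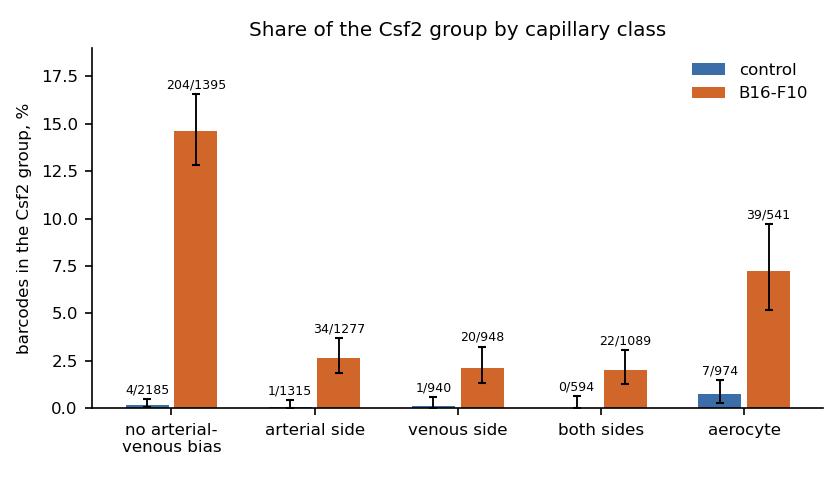
Share in % of barcodes in the Csf2 group in each capillary class, with control in blue and B16-F10 in orange. Bars start at 0, error bars are exact 95% intervals for counting error, and the numbers give group over all barcodes. The bar of the B16-F10 cells without bias, at 14.6%, is the highest, with aerocytes next at 7.21%.

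Genes that differed most between the Csf2 group and the unmarked B16-F10 cells were picked after their values were seen, and no theme among them was tested. Actb, beta actin, was at 14946 CPM in the group and 2619 CPM in the 1081 unmarked cells. Akap12, a scaffold of protein kinase A, was at 6293 and 764 CPM, and the tubulin gene Tubb6 at 435 and 14.6 CPM. Among secreted factors, Pdgfa, a ligand of platelet-derived growth factor receptors, was at 1357 and 50.8 CPM, and Hbegf, a ligand of the EGF receptor, at 1170 and 48.2 CPM. The transcription factor Myc was at 280 and 20.9 CPM. Of 10078 genes measured in both, 947 (9.4%) were called higher in the group and 2169 (21.5%) lower. All 23 measured ribosome biogenesis genes were higher in the group, 22 of them called, with a median log2 ratio of 1.83 over the unmarked cells.

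Most gCap markers of the study were lower in the Csf2 group. So were Hpgd, Tmem100, Calcrl and Clec14a, which are not in that list. Hpgd, which breaks down prostaglandins, was at 323 CPM against 4077 CPM in unmarked B16-F10 cells, and below the 2221 CPM of near-empty barcodes. Tmem100, a lung endothelial membrane protein downstream of BMP signals, was at 100 and 1786 CPM. Calcrl, the receptor of adrenomedullin and CGRP, was at 497 and 3908 CPM, and Clec14a, a lectin of endothelium, at 86.0 and 1261 CPM. Of the 47 gCap genes measured, 37 were lower (32 called) and 10 higher (3 called), with a median of -1.70. Tm4sf1 was among the higher ones, at 3253 CPM in the group and 1039 CPM in unmarked cells. All 15 measured BMP genes were lower, 9 of them called, with a median of -1.44. Of 20 junction and barrier genes, 7 were higher (3 called) and 13 lower (7 called), with a median of -0.39. The junction gene Cldn5 was at 3538 CPM in the group and 2364 CPM in unmarked cells, Cdh5 at 2134 and 1712 CPM, and Pecam1 at 831 and 1261 CPM. Gpihbp1, a gene of the rule, was at 624 CPM in the group, 1258 CPM in unmarked cells and 1212 CPM in near-empty barcodes.

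The reactive capillary (rCap) genes are markers that the study chose partly on these libraries, and the list was split in the group. Of 44 rCap genes, 21 were higher (12 called) and 23 lower (6 called) in the Csf2 group than in unmarked B16-F10 cells, with a median of -0.19. Pim3, a serine/threonine kinase, was at 162 CPM in the group and 234 CPM in the unmarked cells, while Bcl3, a nuclear IkB protein, was at 204 and 105 CPM. Inhbb, the beta-B subunit of activin and inhibin B, was at 948 and 83.9 CPM. Socs3, which blocks JAK kinases, was at 330 and 413 CPM. Lyve1, a hyaluronan receptor, was at 4550 and 1838 CPM, and a UMI of it was found in 202 of the 204 cells. The lymphatic genes Ccl21a and Prox1 had a UMI in 6 and 4 of them.

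Levels of Akap12 and Hpgd followed the number of defining UMIs a B16-F10 cell held. Akap12 was at 686 CPM in the 1126 cells with 0 UMIs of the set, 3166 CPM in the 65 cells with 1, 5554 CPM in the 44 cells with 2, 5786 CPM in the 51 cells with 3 to 5 and 6757 CPM in the 109 cells with at least 6. Hpgd went the other way, at 4056, 2111, 603, 480 and 163 CPM. Cells with 1 UMI, which were left outside, thus stood between the cells with 0 and those with 2 for both genes. Bcl3 did not rise at each step, at 100, 163, 162, 232 and 204 CPM. The median depth was 7485 UMIs in cells with 0 and 11413 UMIs in cells with at least 6, and its part was not tested.

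Other marked sets were small. A group with at least 10 UMIs of the lipid genes Fabp4, Rbp7 and Aqp7 held 63 control cells (2.88%) and 12 B16-F10 cells (0.860%). Platelet genes marked 90 (4.12%) and 74 (5.30%), lymphatic genes 5 and 16, mural genes 10 and 23, and melanoma genes 0 and 13. Without marked barcodes, 2002 control and 1081 B16-F10 cells remained, called unmarked here. Marker levels of other cell types differed between the libraries as well. The 7 melanoma genes summed to 1.41 CPM in the control cells, with 4 of them at 0, and to 63.0 CPM in the B16-F10 cells (33.3 CPM unmarked), beside 12.3 and 948 CPM in near-empty barcodes. Macrophage genes summed to 25.2 and 83.0 CPM, with 717 and 1224 CPM in near-empty barcodes. Lymphatic genes summed to 2045 and 2811 CPM, and to 2054 and 1911 CPM in unmarked cells, most of it Lyve1. Lung epithelial genes summed to 230 and 376 CPM, and to 202 and 157 CPM in unmarked cells, beside 13312 and 7761 CPM in near-empty barcodes. Red cell genes summed to 962 and 1596 CPM, beside 57024 and 43918 CPM in near-empty barcodes. Mural, platelet, fibroblast, neutrophil and lymphoid genes each summed to under 120 CPM in either library. The part of free RNA and of joined cells in the results that follow was not tested, and values without the marked barcodes are given beside them.

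Of 11752 genes with a joint sum of at least 50 UMIs, 712 (6.06%) were at least 2-fold higher in the B16-F10 cells and 441 (3.75%) at least 2-fold lower, with a median log2 ratio of -0.07. By any amount, 44.2% were higher and 55.8% lower. Among unmarked cells the counts were 336 (2.98%) and 263 (2.33%) of 11282 genes, with a median of -0.03. Of the 712 genes, 297 (41.7%) were also called higher in unmarked cells. Unmarked cells of the arterial side gave 247 (2.23%) and 223 (2.01%), and those of the venous side 279 (2.63%) and 178 (1.68%). Unmarked aerocytes gave 153 (1.5%) and 212 (2.08%). With marked barcodes kept, the counts were 341 (3%) and 233 (2.05%) on the arterial side, 310 (2.86%) and 189 (1.74%) on the venous side, and 225 (2.16%) and 237 (2.27%) in aerocytes. The number of genes called follows the UMIs behind each class, so these counts are no ranking of the classes.

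**Figure D3:**
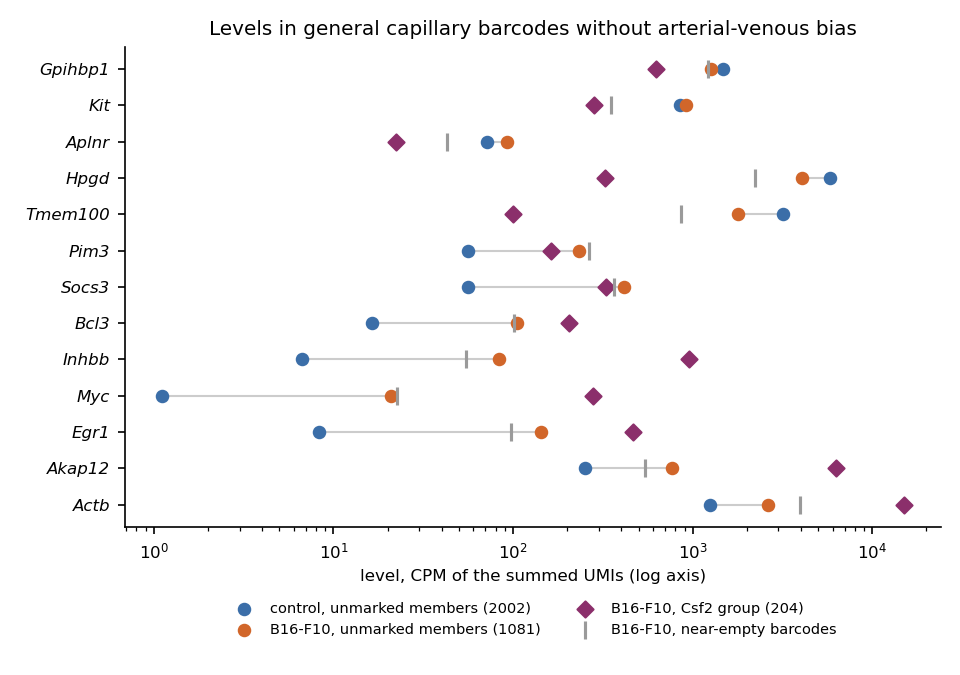
Level in CPM on a log axis of 13 genes in unmarked control cells (blue), unmarked B16-F10 cells (orange), the Csf2 group of the B16-F10 library (purple diamonds) and B16-F10 near-empty barcodes (grey ticks). The Csf2 group lies far above the unmarked cells for Inhbb, Akap12 and Actb, below them for Hpgd and Tmem100, and near them for Pim3 and Socs3.

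Cytokine receptors of the IL-6 family signal through JAK kinases to STAT factors, and Socs3 and Cish shut the signal down. Of 22 measured genes of this pathway in unmarked cells, 18 were higher and 5 were called higher (Socs3, Bcl3, Pim3, Il4ra and Socs1), with a median of 0.49. Over all genes measured in unmarked cells, 47.1% were higher by any amount and 52.9% lower. Pim3 and Bcl3 also belong to the rCap list. Socs3, at chr11:117966079-117970047 on the minus strand of GRCm38, was at 56.4 CPM in unmarked control cells and 413 CPM in unmarked B16-F10 cells, a log2 ratio of 2.87 (2.76 to 2.99). In near-empty barcodes it was at 54.3 and 366 CPM, so its level in free RNA differed between the libraries much as it did in the cells. Pim3 had a ratio of 2.06 (1.94 to 2.19), from 55.9 to 234 CPM, and Bcl3 one of 2.67 (2.46 to 2.89), from 16.4 to 105 CPM. Their near-empty levels differed likewise, at 81.8 and 264 CPM for Pim3, above the cells in both libraries, and at 13.8 and 101 CPM for Bcl3. Cish stood at 0.25 (0.12 to 0.38).

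The receptors of this pathway did not differ in a single direction. Il4ra, the receptor chain for IL-4 and IL-13, was at 152 CPM in unmarked control cells and 386 CPM in unmarked B16-F10 cells, with a ratio of 1.34 (1.26 to 1.42). Osmr, the oncostatin M receptor, was at 85.3 and 146 CPM, with a ratio of 0.77 (0.66 to 0.89). Its ratio was 1.26 on the arterial side and 1.40 on the venous side, both above the value of the cells without bias, and these differences between classes were not tested. Il6st, the shared signalling chain gp130, had a ratio of 0.36 (0.29 to 0.43). Lifr, the receptor of leukemia inhibitory factor, was lower in the B16-F10 cells, at 401 and 257 CPM, with a ratio of -0.64 (-0.72 to -0.57). Among the transducers, Stat3 had a ratio of 0.54, Jak2 of 0.49 and Jak1 of 0.38.

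NF-kB factors sit in the cytoplasm bound by inhibitors, and their targets include the inhibitors themselves, so that a signal limits itself. In unmarked cells 13 of 17 measured genes were higher and 5 were called higher (Nfkbiz, Relb, Tnfaip3, Nfkb2 and Nfkbie), with a median of 0.71 beside -0.03 over all genes. Highest stood Nfkbiz, which encodes a nuclear IkB protein, at 6.35 and 27.6 CPM with a ratio of 2.12 (1.75 to 2.49). Tnfaip3, the deubiquitinase A20, was at 9.24 and 22.6 CPM with a ratio of 1.29 (0.96 to 1.63), and at 2.21 in all cells. Nfkbia, the inhibitor IkB-alpha, was at 353 and 537 CPM with a ratio of 0.61 (0.55 to 0.66). Of the subunits, Relb had a ratio of 1.58 (1.37 to 1.80), Nfkb2 of 1.27 (1.00 to 1.55), Rela of 0.46 and Nfkb1 of 0.05 (-0.04 to 0.15). Relb and Nfkb2, subunits of the noncanonical branch, thus had higher RNA ratios than Rela and Nfkb1 of the canonical branch. Traf1, an adaptor of TNF receptors, had a ratio of 3.68 in all cells and of -0.02 in unmarked cells, where its 5 and 3 UMIs fell short of the minimum for a measured gene.

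The promoters of 3 of these genes and of Emp1 are shown because they hold matches to the motifs of NF-kB or AP-1 close to the start site. Emp1 encodes an epithelial membrane protein of cell surfaces, and was at 75.9 CPM in unmarked control cells and 304 CPM in unmarked B16-F10 cells, with a ratio of 2.00 (1.90 to 2.11). Each sequence is the 250 bases before a RefSeq start site on GRCm38.p6, read 5′ to 3′ on the strand of the gene, with capitals for NF-kB (GGGNNTTTCC) and AP-1 (TGANTCA) matches on either strand.
Tnfaip3, chr10:19015411-19015660, minus strand: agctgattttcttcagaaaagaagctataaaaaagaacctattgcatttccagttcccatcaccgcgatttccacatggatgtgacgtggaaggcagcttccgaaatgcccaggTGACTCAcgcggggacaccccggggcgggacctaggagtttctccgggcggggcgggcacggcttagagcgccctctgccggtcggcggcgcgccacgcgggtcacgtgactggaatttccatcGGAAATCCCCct
Nfkbia, chr12:55492648-55492897, minus strand: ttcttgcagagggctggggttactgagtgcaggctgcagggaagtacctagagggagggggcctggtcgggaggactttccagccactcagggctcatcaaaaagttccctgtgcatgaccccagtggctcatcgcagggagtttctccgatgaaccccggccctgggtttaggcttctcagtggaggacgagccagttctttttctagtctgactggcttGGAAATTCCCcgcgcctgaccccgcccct
Nfkb2, chr19:46304487-46304736, plus strand: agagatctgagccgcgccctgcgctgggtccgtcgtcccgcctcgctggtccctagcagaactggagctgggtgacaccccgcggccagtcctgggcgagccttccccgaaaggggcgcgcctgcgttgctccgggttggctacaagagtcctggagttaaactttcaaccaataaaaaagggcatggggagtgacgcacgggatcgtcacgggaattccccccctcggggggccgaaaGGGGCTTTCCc
Emp1, chr6:135362681-135362930, plus strand: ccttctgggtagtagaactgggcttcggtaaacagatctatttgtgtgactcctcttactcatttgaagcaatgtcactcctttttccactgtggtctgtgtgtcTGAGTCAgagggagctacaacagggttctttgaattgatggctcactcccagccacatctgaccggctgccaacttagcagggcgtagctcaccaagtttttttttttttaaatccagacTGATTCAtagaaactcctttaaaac

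In Tnfaip3 the NF-kB match GGAAATCCCC began 12 bases before the start site and the AP-1 match TGACTCA 136 bases before it. The NF-kB match of Nfkbia, GGAAATTCCC, began 29 bases before the start site, and that of Nfkb2, GGGGCTTTCC, 11 bases before it. Emp1 had the AP-1 matches TGAGTCA and TGATTCA, 145 and 25 bases before the start site. Over RefSeq windows from 250 bases before to 50 bases after the start, the NF-kB letters were found in 7 of 20 windows of the NF-kB list (35%, 15.4 to 59.2), in 22 of 704 windows of genes called higher in the cells (3.12%, 1.97 to 4.69), in 4 of 360 windows of genes called lower (1.11%, 0.304 to 2.82), in 1.63% of windows of the genes measured and in 1.63% of all 32851 windows. Of 11750 measured symbols, 9079 had a window. Some genes have more than 1 window, so windows are not independent.

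The other motifs were counted in the same windows. The AP-1 letters were in 7.81% of windows of genes called higher, 6.67% of those called lower, 4.87% of those measured and 7.81% of all windows. The E-box CACGTG, the letters read by MYC and related factors, was in 14.9% of windows of genes called higher, 9.72% of those called lower, 10.05% of those measured and 7.15% of all windows. The STAT letters TTCCNNNGAA, searched on both strands, were in 0 of 23 windows of the IL-6 list and in 0 of 37 windows of the rCap list, beside 3.44% of windows of the genes measured. None of the 4 motifs holds another, and a match or its absence says only what the letters of a window are.

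Immediate early genes are switched on within minutes to hours of a stimulus and do not need new protein. All 16 measured in unmarked cells were higher and 10 were called higher, with a median of 1.47 (2.00 in all cells). Egr1, a zinc finger factor, was at 8.35 and 144 CPM in unmarked cells, with a ratio of 4.10 (3.82 to 4.40), and at 465 CPM in the Csf2 group. Its near-empty levels were 27.2 and 97.0 CPM. Atf3 had a ratio of 3.04 (2.77 to 3.33), Junb of 2.37 (2.30 to 2.44), Fos of 2.11 (1.99 to 2.24) and Zfp36, which destabilises cytokine mRNA, of 2.01. Jun, an AP-1 subunit, was at 1366 and 1775 CPM with a ratio of 0.38 (0.35 to 0.41). Fosl1 was at 0.443 and 3.03 CPM in unmarked cells and at 299 CPM in the Csf2 group, which it helped to define. Tissue was digested for 1 h at 37 °C in both groups, and the part of digestion in these genes was not tested.

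Ribosome biogenesis genes make and assemble ribosomal subunits in the nucleolus and are known targets of MYC. The list depended on the Csf2 group. In all cells 23 of 23 genes were higher and 19 called higher, with a median of 1.41, and in unmarked cells 23 of 23 were higher and 4 called (Rrp12, Bysl, Gnl3 and Nop58), with a median of 0.71. Gnl3, the nucleolar protein nucleostemin, was at 33.0 and 76.0 CPM in unmarked cells, a ratio of 1.21 (1.03 to 1.38). Nop58, of the complex that methylates ribosomal RNA, had a ratio of 1.03 (0.87 to 1.20), Npm1 of 0.55 and Ncl of 0.39. Rrp12 was at 0.961 and 5.93 CPM with a ratio of 2.63 (1.72 to 3.63). Myc, at 1.11 and 20.9 CPM in unmarked cells, had a ratio of 4.24 (3.48 to 5.11), beside near-empty levels of 2.29 and 22.4 CPM.

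BMP ligands act on endothelium through the receptors Acvrl1, Bmpr2 and Eng and the factors Smad1, Smad5 and Smad9, with Smad6 and Smad7 as inhibitors and the Id genes as targets. In unmarked cells 14 of 17 measured genes were lower and 3 called lower (Smad9, Id2 and Bmp4), with a median of -0.61 beside -0.03 over all genes. Smad9 was at 13.3 and 4.60 CPM with a ratio of -1.53 (-2.08 to -1.02). The inhibitor genes Smad6, at 915 and 467 CPM, and Smad7, at 702 and 407 CPM, had ratios of -0.97 and -0.79. Tmem100 was at 3164 and 1786 CPM with a ratio of -0.83 (-0.85 to -0.80), and near-empty barcodes held 1602 and 861 CPM of it. The ligand genes Bmp4 and Bmp6 had ratios of -1.31 (-1.54 to -1.09) and -0.59 (-0.63 to -0.55).

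The Id genes and the receptors differed within this list. Id2 was at 135 and 50.6 CPM with a ratio of -1.42 (-1.57 to -1.26), Id3 at 1299 and 917 CPM with -0.50, and Id1 at 589 and 576 CPM with -0.03 (-0.08 to 0.02). Bmpr2 had a ratio of -0.45, while Acvrl1 stood at -0.08 and Eng at 0.00 (-0.03 to 0.04). Smad1 was higher, at 105 and 134 CPM with a ratio of 0.35. The list had a median of -0.47 on the arterial side, -0.58 on the venous side and -0.23 in aerocytes, all unmarked, and these differences between classes were not tested.

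**Figure D4:**
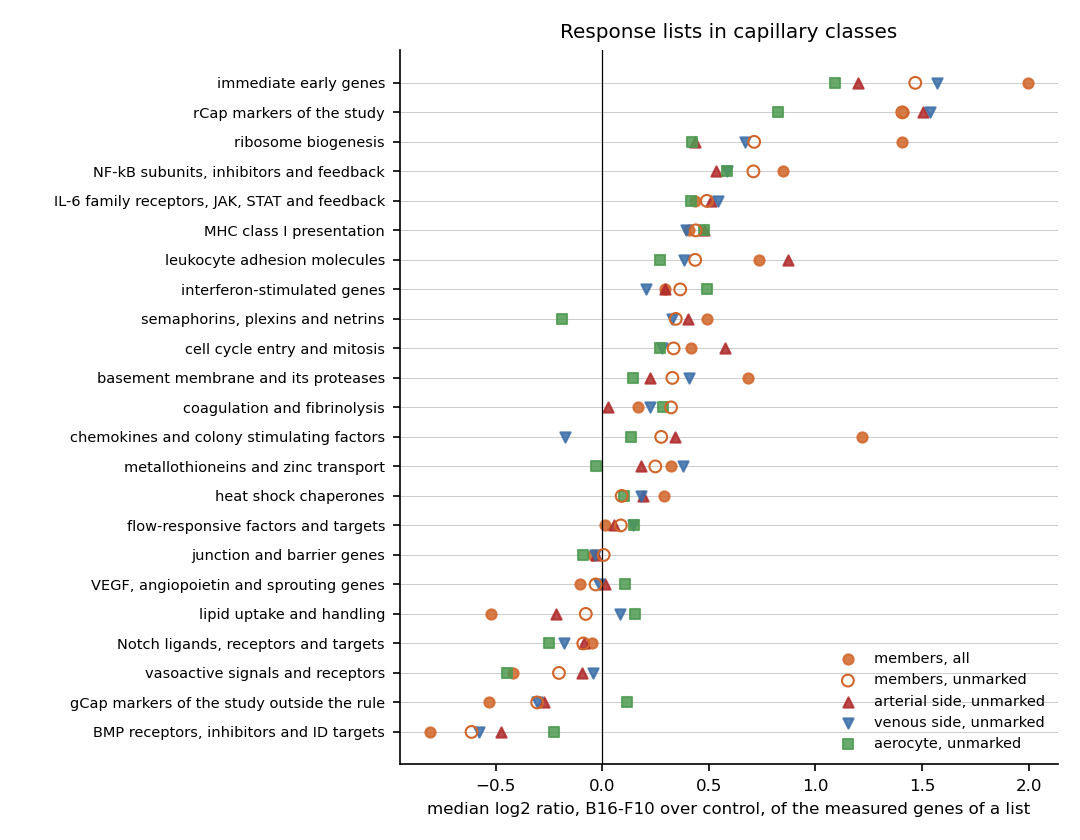
Median log2 ratio, B16-F10 over control, of the measured genes of 23 lists in all cells without bias (filled circles), their unmarked cells (open circles) and unmarked cells of the arterial side, venous side and aerocytes. Immediate early and rCap lists lie farthest right and the BMP list farthest left, and the filled and open circles lie far apart for ribosome biogenesis and chemokines.

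Leukocyte adhesion molecules hold passing leukocytes and chemokines draw them, and both lists stood lower once marked cells were left out. The adhesion list had a median of 0.73 in all cells and of 0.44 in unmarked cells, with 10 of 11 genes higher and 2 called, the selectins Sele and Selp. Icam1, a ligand of leukocyte integrins, was at 130 and 239 CPM in unmarked cells with a ratio of 0.87 (0.78 to 0.97), and Vcam1 at 9.24 and 15.5 CPM with 0.75 (0.38 to 1.11). Sele, the endothelial selectin induced by cytokines, was at 2.42 and 39.0 CPM in all cells but at 2.66 and 5.69 CPM in unmarked cells, and the Csf2 group held 175 CPM of it. Icam2, present on resting endothelium, had a ratio of 0.11. The chemokine list had a median of 1.22 in all cells, with 7 of 9 genes higher, and of 0.28 in unmarked cells, with 4 of 7 higher and Cxcl9 and Cxcl10 called. Csf2 is in this list and helped to define the marked cells. It held 7 UMIs in unmarked B16-F10 cells and 0 in unmarked control cells, too few to be measured. Its absence from the list there follows from the marking. Cxcl10, which draws T cells, had a ratio of 5.95 in all cells and of 3.22 (2.56 to 3.94) in unmarked cells, where it was at 1.63 and 15.1 CPM.

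Interferon-stimulated genes and MHC class I genes each differed by under 2-fold, and most of them were higher. Of 24 interferon-stimulated genes, 22 were higher in unmarked cells and 0 were called, with a median of 0.37. Gbp2, a GTPase of cell defence, was highest at 0.89 (0.78 to 1.00), and Cmpk2 lowest at -0.35 (-0.56 to -0.13). Of 18 MHC class I genes, 17 were higher and 0 were called, with a median of 0.44. H2-K1, a heavy chain, was at 1583 and 2348 CPM with a ratio of 0.57, Psmb8, of the immunoproteasome, had 0.74, and Tap1, a peptide transporter, had 0.72. With no test in this design, 0 called means only that no gene of these lists reached 2-fold.

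Fatty acid handling is a known task of capillary endothelium, and Gpihbp1 is part of it. Fabp4, a fatty acid binding protein, was at 768 CPM in the control cells and 145 CPM in the B16-F10 cells, a ratio of -2.41 (-2.49 to -2.34). Most of its UMIs were in marked barcodes, which Fabp4 itself helped to define, so a low level in unmarked cells follows from the marking. In unmarked cells it was at 27.5 and 7.14 CPM, beside 1413 and 166 CPM in near-empty barcodes. Pparg, a regulator of lipid genes, had 268 and 48 UMIs in all cells and 12 and 5 in unmarked cells. Scarb1, a receptor of high density lipoprotein and a gene of the rCap list, was at 119 and 288 CPM in unmarked cells with a ratio of 1.28 (1.19 to 1.37). Cd36, a fatty acid transporter, was at 2520 and 2122 CPM with -0.25, and Lpl, lipoprotein lipase, at 1370 and 839 CPM with -0.71 (-0.75 to -0.67). The list as a whole had 5 of 11 genes higher in unmarked cells and a median of -0.08.

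Most gCap genes of the study were lower in the unmarked B16-F10 cells. Over all genes measured in unmarked cells, 52.9% were lower by any amount and 2.33% were called lower. Of the 47 gCap genes, 33 were lower and 1 was called lower, with a median of -0.31. That gene was Sox11, a transcription factor, at 281 and 127 CPM with a ratio of -1.14 (-1.24 to -1.04). Adgrl3, an adhesion receptor, was at 4328 and 2214 CPM with a ratio of -0.97 (-0.99 to -0.94), and Tek, the angiopoietin receptor Tie2, had -0.65. Plcb1, a phospholipase, was the highest at 0.71 (0.67 to 0.74). The study chose this list, like the rCap list, partly on these libraries, so neither is independent evidence of its direction. All 44 rCap genes were higher in unmarked cells and 28 were called, with a median of 1.41, equal to that in all cells.

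Genes named by size of ratio or of level difference added others with varied tasks. Among the higher ones, Cebpd, a transcription factor of acute inflammation, was at 315 and 1271 CPM in unmarked cells with a ratio of 2.01 (1.96 to 2.07). Bhlhe40, a repressor tied to the clock and to hypoxia, was at 3.69 and 35.3 CPM with 3.26 (2.82 to 3.72), and Tmem173, which encodes the DNA sensor adaptor STING, at 1.77 and 21.5 CPM with 3.60 (2.98 to 4.28). Synpo, an actin-binding protein, had 3.21, and Samsn1, an adaptor protein, 3.33. Ly6a, the surface protein Sca-1, was at 2982 and 5297 CPM with a ratio of 0.83 (0.81 to 0.85), while its near-empty levels were 3956 and 5498 CPM. Among the lower ones, Mctp1, a membrane protein with calcium-binding domains, was at 637 and 174 CPM with a ratio of -1.87 (-1.95 to -1.79), and Tnik, a kinase of the Wnt pathway, at 114 and 29.7 CPM with -1.94 (-2.14 to -1.74). The antisense gene 9530026P05Rik was at 694 and 250 CPM, and its reads may be shared with a gene on the other strand.

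The rCap genes were also read cell by cell, after each cell had been thinned to 2000 UMIs, which left out 19 control and 18 B16-F10 cells as too shallow. A control cell held a median of 20 UMIs of the rCap list (quartiles 16 to 24) and a B16-F10 cell 35 (27 to 48). Above 33 UMIs, the 95th percentile of the control cells, lay 107 of the 2166 control cells (4.94%), while 762 of the 1377 B16-F10 cells did (55.3%, 52.67 to 57.99). Within 2 UMIs of that limit lay 120 and 207 cells, so the limit cuts through a range and not between separate groups. Unthinned, the medians were 66 and 140 UMIs and the share above the control limit was 56.6% of B16-F10 cells. The variance of the score was 2.56 times its mean in the control cells and 7.86 times in the B16-F10 cells, so cells of the B16-F10 library differed more among themselves. Sums over cells do not tell whether more cells carry an RNA or each cell carries more, and the wide spread belongs to the per-cell values.

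The gCap list ran against the rCap list. Its median was 63 UMIs of 2000 in control cells and 49 in B16-F10 cells, and 32 in the Csf2 group. Across cells of 1 library the Pearson correlation of both scores was -0.18 in the control and -0.31 in the B16-F10 cells, and -0.23 and -0.41 in unmarked cells. Cells share their library, and UMIs of a fixed total crowd each other out, so these values are a description. In the Csf2 group the correlation was 0.12, and 139 of its 204 cells (68.1%) lay above the rCap limit with a median of 41 UMIs, beside 35 UMIs in unmarked B16-F10 cells. The Csf2 group and a high rCap score therefore overlapped without being the same set, since 542 of 1064 unmarked B16-F10 cells (50.9%) lay above the limit of the unmarked control cells.

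**Figure D5:**
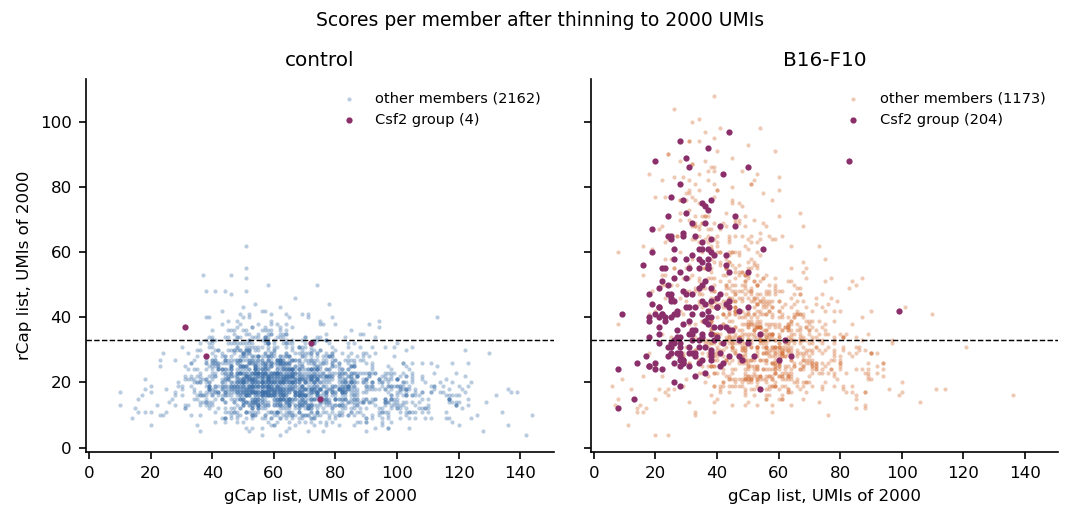
UMIs of the rCap list (vertical axis) and of the gCap list (horizontal axis) per cell after thinning to 2000 UMIs, with control left and B16-F10 right. The dashed line is the 95th percentile of the control cells (33 UMIs), purple points are the Csf2 group, and 55.3% of the right-hand cells lie above it against 4.94% on the left.

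The limits of the rule were read from cells just inside and just outside. With 3 UMIs of Gpihbp1, Kit and Aplnr, the lowest count allowed, there were 61 control and 61 B16-F10 cells, and with 2 UMIs 61 and 56. In the B16-F10 library Inhbb was at 683 CPM just inside this limit and 434 CPM just outside, and Pim3 at 91.1 and 51.8 CPM. At the limit of the arterial-side genes (Ntrk2, Adam23, Gja4 and Fam181b), Pim3 was at 228 CPM in B16-F10 cells with 1 UMI and 225 CPM with 2. At the limit of the venous-side genes (Vegfc, Chrm2 and Kcnh1) it was at 232 and 258 CPM. B16-F10 cells with 0 UMIs of the arterial-side genes held Inhbb at 353 CPM, while cells with 1 held 118 CPM.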

How the data were processed

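Single-cell RNA-seq was analysed in 2 libraries, 1 per group as the labels give it. The authors deposited raw UMI counts per gene and barcode for all barcodes, with no normalization or filter. The submitters' processing notes name Cell Ranger 7.2.0 and Seurat 4.4.0, while the methods of the study give an earlier Cell Ranger and the mm10 genome. The labels name a v2 kit, but the matrices list 1597090 and 1779952 barcodes, which exceeds what a v2 barcode list contains, and the kit is therefore uncertain. The counting of intronic reads is not given in the sources used here. Intronic counting would raise long genes in both libraries.

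Counts of the 32285 gene IDs were read with Python 3.11.15, numpy 2.4.6, scipy 1.17.1 and pandas 2.3.3, and figures were drawn with matplotlib 3.10.9. Cells were chosen by the marker rule, and UMIs of a class were added up within each library and scaled to CPM without a pseudocount. Genes with at least 50 UMIs over the sums of both libraries counted as measured. A measured gene with a sum of 0 in 1 library kept an infinite ratio and counted as called. The floor of 3 counts served only for the lower bound of the fold of a gene with 0 control UMIs. Precision rests on these sums, and no interval covers differences between mice. Doublets stayed in, and their removal with Scrublet (scanpy 1.11.5) was an alternative, as were other limits of the rule, thinning to 2000 UMIs, centring, per-cell weighting and other minimums of UMIs. The steps were tested on simulated data. RefSeq windows are of GRCm38.p6, and gene coordinates are of GENCODE M21 and count from 1.

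Named genes were the 15 per direction with the interval bound farthest from 0, the 10 per direction with the greatest CPM difference (mitochondrial and ribosomal protein genes left out), the highest and lowest gene of each of 23 response lists, the rule genes, and Pim3, Bcl3, Inhbb, Socs3 and Osmr. Other genes named are members of those lists or were chosen after their values were seen. The members and lists were chosen with earlier results of these data known, and the marked sets after their values were seen. A gene is not reported here, and no comparison of the share of the cells between groups was made, since the rule genes differ between libraries.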

Additional observations from a re-analysis of the deposited data

Results flagged for a closer look

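The share of the Csf2 group was set beside the control library in further kinds of barcodes. Of general capillary barcodes with genes of both the arterial and the venous side, 22 of 1089 (2.02%, exact 95% interval 1.27 to 3.04) belonged to it in the B16-F10 library and 0 of 594 in the control library, with an exact upper bound of 0.619%. Of the endothelial barcodes in no capillary class, 127 of 1858 (6.835%, 5.73 to 8.08) belonged to it in the B16-F10 library and 11 of 1913 (0.575%, 0.287 to 1.03) in the control library. Both are given because the share stood above that of the control library. The first share is also among those of the capillary classes above, while the second kind of barcodes entered no comparison there. Barcodes that met the rule with at least 300 but under 1000 genes were few, and 0 of 27 in the B16-F10 library and 0 of 38 in the control library belonged to the group, with upper bounds of 12.8% and 9.25%. Of 1215 pairs of a named or listed gene and another capillary class, 1 had intervals beyond 0.5 on the log2 scale in opposite directions. This was Cxcl9, a chemokine that draws T cells, with a ratio of 2.77 (2.29 to 3.29) in the cells without bias, from 41 and 215 UMIs, and of -2.63 (-4.14 to -1.41) in aerocytes, from 52 and 6 UMIs. In unmarked cells the ratios were 3.48 and -4.07. The UMIs of Cxcl9 without bias came from 17 control and 9 B16-F10 cells, and 3 of the latter held 81.9% of them. No test was made of this difference. No group held 4 or more samples, so no sample could be set apart from its group.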

How the results depend on the processing

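Every difference rests on 1 library per group and on the UMIs summed in each, so mice, digestion and library cannot be told apart from the treatment. No paired analysis was possible because a group is a single library. Free RNA adds UMIs to every barcode, and its part was not tested. The alternatives without marked barcodes or without the Csf2 group were chosen after seeing the data. Of the other settings for the counts of cells, genes and list members and for the scores, 109 stayed within 1.5 times the value or within its interval and 28 did not, and of those chosen after seeing the data 27 did and 15 did not.

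The number of cells, 2185 control and 1395 B16-F10, was 765 and 482 with 0 UMIs of each excluded gene group, and 5034 and 4709 with all general capillary barcodes. The 712 genes called higher became 336 without marked barcodes. They became 396 and 341 without barcodes with at least 2 and at least 1 UMIs of the Csf2 set. With a minimum of 10 UMIs they became 1246, and with no minimum but at least 1 UMI in each library 1779. After thinning to 2000 UMIs they became 429. The 441 called lower became 263, 273, 255, 1043, 1512 and 268 in the same order, and 671 with 0 UMIs of the excluded groups. Of the gCap list, 6 genes were called lower, against 18 with 0 UMIs of the excluded groups, 2 with all general capillary barcodes, 2 with the rule applied after thinning, 3 when centred, 3 by the mean of per-cell CPM, and 1 without marked barcodes or without either Csf2 set. Of the ribosome biogenesis list, 19 genes were called higher, against 4 with all general capillary barcodes, 12 with the rule after thinning, 4 without marked barcodes and 4 and 3 without the Csf2 sets. Of the BMP list, 5 genes were called lower, against 8 with no Malat1 limit, 9 with 0 UMIs of the excluded groups, and 3 with all general capillary barcodes, without marked barcodes or without either Csf2 set. The share of B16-F10 cells above the rCap limit, 55.3%, was 58.2% with 0 UMIs of the excluded groups, 60.6% at 4000 UMIs and 37.0% above the 99th percentile of control cells. After thinning, the arterial side had 185 genes called higher and 131 lower (341 and 233 unthinned) and the venous side 179 and 99 (310 and 189). The rule applied after thinning had changed limits. It asked for at least 1 UMI of Pecam1 and Cdh5, at least 1 of Gpihbp1, Kit and Aplnr, and 0 of each excluded group. Its limits of genes, mitochondrial and Malat1 UMIs came from the full barcode. The ratio of Traf1 turned from 3.68 to -0.025 without marked barcodes. Beyond the smaller sums and the cells left out by construction, the cause of these differences was not tested.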

Other observations

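Lists not described above gave small medians in unmarked cells with single genes far from them. Genes of VEGF, angiopoietin and sprouting had a median of -0.03, with 9 of 20 higher. Within that list Cxcr4, the receptor of Cxcl12, was at 34.1 CPM in unmarked control cells and 8.35 CPM in unmarked B16-F10 cells, a ratio of -2.03 (-2.42 to -1.66), while Nrp2, a co-receptor of VEGF-C and semaphorins, was at 2.36 and 11.5 CPM with 2.28 (1.69 to 2.91). Pfkfb3, a driver of glycolysis in sprouting endothelium, was at 41.7 and 154 CPM with 1.89 (1.74 to 2.03). The VEGF receptor genes Kdr and Flt1 had ratios of 0.09 and -0.03. Angpt2, a Tie2 ligand, was at 43.1 and 21.7 CPM with -0.99 (-1.24 to -0.75).

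Among vasoactive genes, with a median of -0.20 and 6 of 16 higher, Edn1, the precursor of the vasoconstrictor endothelin-1, was at 402 and 187 CPM in unmarked cells with a ratio of -1.10 (-1.18 to -1.02). Basement membrane genes had a median of 0.33, with 13 of 16 higher. The collagen IV genes Col4a1 and Col4a2 had ratios of 0.50 and 0.61, the protease inhibitor Timp3 was at 145 and 306 CPM with 1.08 (0.99 to 1.16), and Lama4, a laminin chain, had -0.71 (-1.12 to -0.30). In the coagulation list, with a median of 0.32 and 7 of 11 higher, Plaur, the urokinase receptor, was at 58.4 and 136 CPM with 1.23 (1.09 to 1.36), and Thbd, thrombomodulin, at 825 and 612 CPM with -0.43 (-0.48 to -0.38).

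Notch genes had a median of -0.09, with 5 of 14 higher, and the ligand Jag1 was lowest at -0.97 (-1.22 to -0.72). Flow-responsive genes had a median of 0.09, with 11 of 15 higher. Klf2 and Klf4, factors induced by laminar flow, were at 678 and 936 CPM and at 328 and 432 CPM in unmarked cells, but at 218 and 97.1 CPM in the Csf2 group. Junction genes had a median of 0.01, with 10 of 19 higher and 0 called in either direction. Semaphorins, plexins and netrins had a median of 0.34, with 8 of 15 higher and 7 lower. The gene farthest from 0 was lower: Sema5a, a transmembrane semaphorin, was at 88.5 and 6.66 CPM in unmarked cells with a ratio of -3.73 (-4.15 to -3.34), beside near-empty levels of 46.2 and 12.8 CPM. Sema7a had a ratio of 1.36 (1.23 to 1.49) and Sema6b of 1.59 (1.21 to 1.97). Cell cycle genes had a median of 0.33, with Ccnd1, cyclin D1, at 1.27 (1.17 to 1.38) and Cdkn1b, the inhibitor p27, at -0.96 (-1.10 to -0.82). Heat shock chaperones had a median of 0.09, and metallothioneins and zinc transporters 0.25.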
